A study of Homo sapiens with 6 samples.

Results

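Extracellular adenosine genes were followed in the human glioblastoma line U251, an established cell line, with and without stable overexpression of the long noncoding RNA XLOC013218. The group holds 10 of the 20330 Ensembl genes in the tables, matched by symbol: NT5E, ENTPD1, ENTPD2, ENTPD3, ADA, ADK, SLC29A1, ADORA1, ADORA2A and ADORA2B. It was put together around NT5E with the difference between these groups already known, so the differences of all 10 genes are given as a description. A fit over all genes is quoted for them as standard errors (SE), a count of calls and the settings under which NT5E passed. None of these is an independent test. RNA sequencing gave 3 control libraries and 3 overexpression libraries. All 6 come from the same cell line, the control genotype is labelled only as control, and the sources used here do not give the vector of either group or say whether the stable cells are 1 clone.

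Cells that release ATP can turn it into adenosine at their surface. CD39 (ENTPD1) and its relatives strip ATP to AMP, and CD73, the product of NT5E, removes the last phosphate to leave adenosine. Adenosine then acts on G protein-coupled receptors that raise or lower cyclic AMP, or is carried into the cell, where adenosine kinase returns it to AMP and adenosine deaminase turns it into inosine. In gliomas CD73 is often carried by the tumour cells and CD39 largely by immune cells, and adenosine dampens the activity of T cells.

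Levels are given as FPKM, a fragment count divided by the transcript's length and by the library's mapped fragments, so that genes can be compared with each other. FPKM keeps no read totals. From the steps between low values, the relative depth of the libraries was estimated at between 0.77 and 1.0 of that of control replicate 2, with overlap between the groups. XLOC013218 was not analysed here, so the labels were not checked against its level. Over the Ensembl genes the values summed to between 598683 and 621922 per library. The glioma markers VIM (3840 FPKM in control), CD44 (1178 FPKM), SOX2 (116 FPKM) and NES (81.5 FPKM) were high, while S100B was low at 0.543 FPKM. GFAP, an astrocyte filament protein, averaged 41.6 ± 6.06 FPKM in the control libraries and 21.6 ± 7.91 FPKM in the overexpression libraries (SD, n = 3 per group), without overlap. Its difference in log2(FPKM + 1) was -0.96, and it did not pass the test used for all genes (limma adjusted p = 0.107). SOX2, a stem cell transcription factor, averaged 116 ± 2.44 FPKM in the control libraries and 102 ± 3.37 FPKM in the overexpression libraries, without overlap, and did not pass either (limma adjusted p = 0.120). The T cell marker CD3E was listed at 0 in all 6 libraries.

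Of the 3 ENTPD genes of the group, which act on ATP and ADP, ENTPD1 alone was above 0 in every library. Its level was 1.87, 1.88 and 2.15 FPKM in control replicates 1 to 3 and 2.09, 1.87 and 1.97 FPKM in overexpression replicates 1 to 3. The groups overlapped fully, at 1.97 ± 0.159 and 1.98 ± 0.110 FPKM (SD, n = 3 per group). ENTPD2, which prefers ATP over ADP and leaves ADP behind, had 0.13, 0.06 and 0 FPKM in the control libraries and 0.08, 0 and 0.03 FPKM in the overexpression libraries. ENTPD3, the third surface enzyme of the family, was listed at 0 in all 6 libraries. At these levels no difference in ENTPD2 or ENTPD3 was detectable.

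NT5E was the member that stood apart between the groups. The control libraries had 4.59, 4.94 and 6.50 FPKM and the overexpression libraries 8.76, 11.48 and 10.09 FPKM. All 3 overexpression values lay above all 3 control values, with control replicate 3 and overexpression replicate 1 nearest to each other. The means were 5.34 ± 1.02 and 10.1 ± 1.36 FPKM (SD, n = 3 per group), a ratio of 1.89. On the log2(FPKM + 1) scale, which adds a pseudocount of 1 and understates changes at low levels, the difference was 0.81 (SE 0.13). In bulk RNA, a larger share of cells that make NT5E and more NT5E RNA per cell cannot be told apart. The gene lies on chromosome 6 (ENSG00000135318), and no other gene of GENCODE 29 overlaps it. The values are for the whole gene, so its splice forms are not separated.

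NT5E also varied more within the control group than most genes of similar level. Its coefficient of variation over the control libraries was 19.0%, against a median of 9.92% for 794 tested genes within 1.2-fold of its control mean, and 85.8% of those genes varied less. Leaving out 1 library at a time gave log2 differences between 0.73 (without overexpression replicate 2) and 0.94 (without control replicate 3). Relative to ENTPD1 in the same library, NT5E was 2.46, 2.63 and 3.02 times as abundant in the control libraries and 4.19, 6.14 and 5.12 times in the overexpression libraries.

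**Figure D1:**
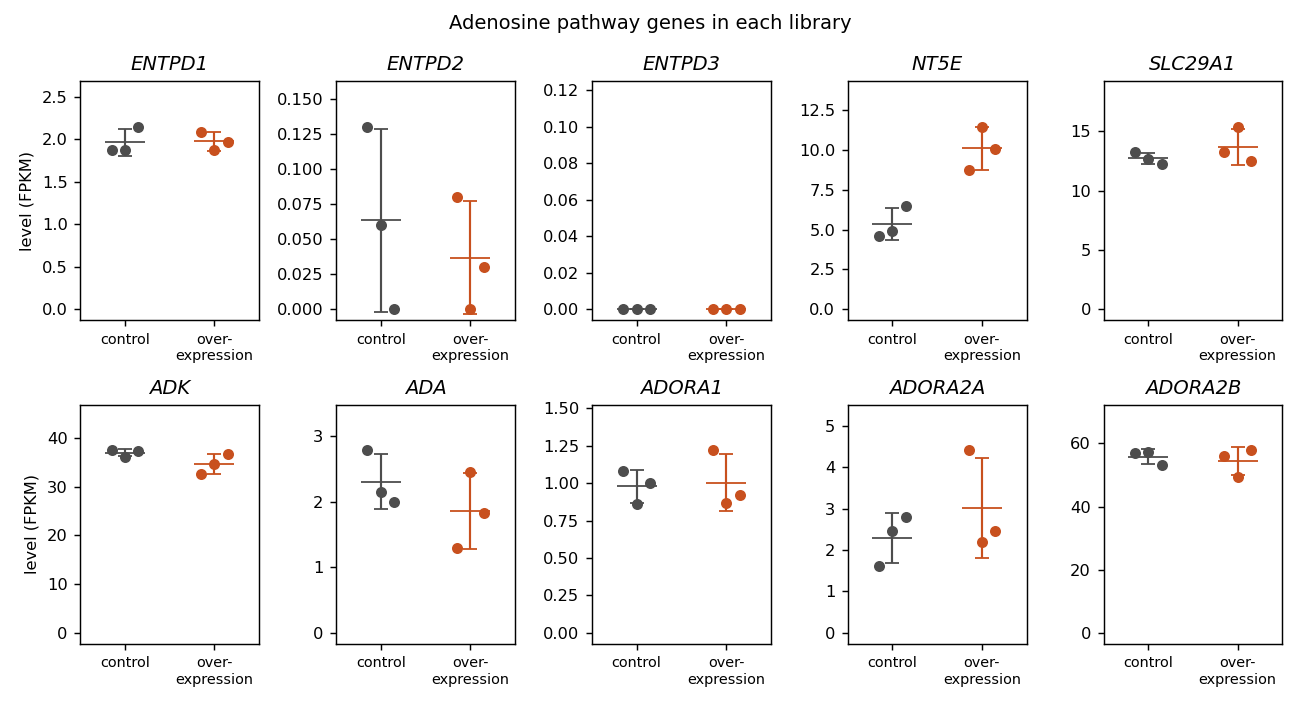
Level in FPKM of each of the 10 genes in control and overexpression libraries, with 1 point per library (replicates 1 to 3 from left to right within a group), a horizontal bar for the mean and error bars for the SD (n = 3). The control points of NT5E run from 4.59 to 6.50 FPKM and its overexpression points from 8.76 to 11.48 FPKM, and in the other panels the groups overlap or are at 0.

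SLC29A1 encodes ENT1, the main carrier through which adenosine crosses the plasma membrane in either direction. It was at 13.22, 12.66 and 12.26 FPKM in the control libraries and 13.22, 15.39 and 12.46 FPKM in the overexpression libraries. Only overexpression replicate 2 lay above the control range. The log2 difference of 0.09 (SE 0.09) went to 0.01 without that library.

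Among the enzymes that remove adenosine, the kinase was far more abundant than the deaminase. ADK, the kinase that returns adenosine to AMP, was at 37.43, 36.12 and 37.36 FPKM in the control libraries and 32.61, 34.69 and 36.58 FPKM in the overexpression libraries. Overexpression replicates 1 and 2 lay below the control range and replicate 3 inside it, with a log2 difference of -0.09 (SE 0.06). ADA, the deaminase, was at 2.78, 2.14 and 1.99 FPKM in the control libraries and 1.29, 2.45 and 1.83 FPKM in the overexpression libraries. The log2 difference of -0.22 (SE 0.17) was -0.07 without overexpression replicate 1, the lowest library, and -0.12 without control replicate 1, the highest. ADK exceeded ADA by between 13.5-fold and 25.3-fold in the 6 libraries, and these ratios overlapped between the groups. The gene PKIG lies opposite to part of ADA and was at between 14.1 and 19.37 FPKM. The libraries were made with a stranded kit per the labels, but the sources used here do not say whether the counting used the strand.

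ADORA2B, a receptor which raises cyclic AMP and needs more adenosine than its relatives to respond, was the most abundant of all 10 genes. Control libraries had 57.11, 57.21 and 53.03 FPKM and overexpression libraries 56.04, 49.33 and 57.81 FPKM. The groups overlapped, with overexpression replicate 2 lowest and overexpression replicate 3 highest, and the log2 difference of -0.04 (SE 0.07) was 0.03 without overexpression replicate 2. ADORA2B made up between 90.9% and 95.5% of the summed FPKM of the 3 receptors in each library.

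ADORA2A, a receptor also coupled to a rise in cyclic AMP, was at 1.62, 2.47 and 2.79 FPKM in the control libraries and 4.41, 2.19 and 2.46 FPKM in the overexpression libraries. Overexpression replicate 1 was the highest and control replicate 1 the lowest, and the other 4 libraries lay close together. Its log2 difference of 0.26 (SE 0.21) was 0.03 without overexpression replicate 1 and 0.11 without control replicate 1. A readthrough gene that includes ADORA2A, SPECC1L-ADORA2A, was at 0.36 FPKM in overexpression replicate 1, 0.12 FPKM in overexpression replicate 3 and 0 in the other 4 libraries, so the split of reads between the pair is uncertain. ADORA1, the receptor which lowers cyclic AMP, was at 1.08, 0.86 and 1.00 FPKM in the control libraries and 1.22, 0.87 and 0.92 FPKM in the overexpression libraries, without separation of the groups. The level of ADORA3 was not analysed here.

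The order of levels was nearly the same in both groups. In control cells it ran from ADORA2B (55.8 FPKM) through ADK (37.0 FPKM), SLC29A1 (12.7 FPKM) and NT5E (5.34 FPKM) to ADA, ADORA2A and ENTPD1 (2.30, 2.29 and 1.97 FPKM), and then ADORA1 (0.98 FPKM), ENTPD2 and ENTPD3. The ranges of ADA and ADORA2A overlapped, as did those of ADORA2A and ENTPD1 and those of ENTPD2 and ENTPD3, and the other neighbours did not overlap. In overexpressing cells NT5E kept the 4th place, with 10.1 FPKM against 13.7 FPKM for SLC29A1 just above it, and ADORA2A, ENTPD1 and ADA followed at 3.02, 1.98 and 1.86 FPKM. Among these, the ranges of ENTPD1 and ADA overlapped, as did those of ADORA2A and ADA, and those of ADORA2A and ENTPD1 did not.

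**Figure D2:**
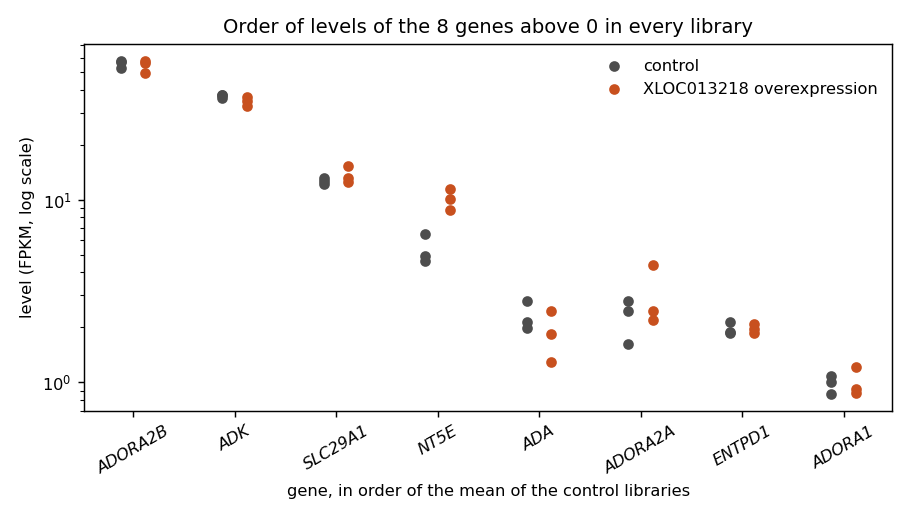
Level (FPKM, log axis) of the 8 genes above 0 in every library, ordered by their control mean, with 1 point per library and the groups side by side. ADORA2B (55.8 FPKM in control) and ADK (37.0 FPKM) lead, ADORA1 (0.98 FPKM) is last, and NT5E is the gene whose groups do not overlap.

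Across the whole table, the 11731 features that averaged 1 FPKM or more were tested with limma on log2(FPKM + 1), and an adjusted p under 0.05 was the threshold. Of the 10 genes, 7 reached this filter. ADORA1, with a mean of 0.992 FPKM, fell just short of it, and ENTPD2 and ENTPD3 were far below. NT5E was the 1 of the 7 past the threshold, where 0.52% of all tested features passed (0.315% as higher in overexpressing cells), and the 1 of the 7 whose groups did not overlap, where 18.9% of all tested features did not (8.81% with the overexpression values higher). Because the group was built on this comparison, nothing is read from these counts. The median log2 difference of the 7 was 0.01, against -0.0008 for all tested features. NT5E passed with a pseudocount of 0.1 and under quantile normalization. It did not pass after rescaling to TPM, with no filter on low values, with the replicate number as a block, or with any 1 library left out.

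The wider purine network around these genes showed no call. Beyond the 10 genes, 6 lists chosen by function held 128 genes, of which 127 were in the tables and 73 were tested: none of the 73 passed in limma (0 higher and 0 lower, adjusted over all tested features). Over all tested features only 0.52% passed. A count of 0 is near that share, so nothing is read from it here or in the single lists. At an unadjusted p under 0.05 there were 3 higher and 8 lower, 15.1% of the 73, beside 12.7% of all tested features. The groups did not overlap for 13 of the 73, beside 18.9% of all tested features, and nothing is read from that count either. The median log2 difference of the 73 was -0.03.

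The list for adenosine formation held 25 further genes, some of them enzymes of other nucleotides. Of these 25 genes, 13 were tested and 0 passed (1 higher and 1 lower at an unadjusted p under 0.05, median log2 difference -0.06). AHCY, which releases adenosine from S-adenosylhomocysteine inside the cell, was at 122 ± 7.02 and 122 ± 4.89 FPKM (SD, n = 3 per group). NT5C2, a cytosolic 5'-nucleotidase, was at 40.8 ± 3.61 and 37.9 ± 1.57 FPKM, and NT5C3B, another nucleotidase of the cytosol, at 87.6 ± 4.94 and 80.8 ± 3.69 FPKM. NT5C3A, a nucleotidase of pyrimidine nucleotides named after its values were seen, had 19.97, 22.43 and 20.84 FPKM in the control libraries and 24.6, 26.07 and 27.33 FPKM in the overexpression libraries. Its groups did not overlap, and it did not pass (log2 difference 0.29, limma adjusted p = 0.119). NT5C, a further nucleotidase, was lower in all 3 overexpression libraries, at 44.95, 42.41 and 40.97 FPKM against 47.07, 46.71 and 49.62 FPKM, and did not pass (limma adjusted p = 0.286). ENPP1, a surface enzyme that makes AMP straight from ATP, had 2.92, 2.57 and 2.93 FPKM in the control libraries and 3.05, 2.61 and 2.84 FPKM in the overexpression libraries. The groups of ENPP1 overlapped, and its level was above that of ENTPD1 in every library. ALPL, a phosphatase that can also turn AMP into adenosine, was at 0.09 FPKM in overexpression replicate 2 and 0 in the other 5 libraries.

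For removal and salvage, 14 of 21 genes were tested and 0 passed (1 higher and 3 lower at an unadjusted p under 0.05, median 0.02). PNP, which splits the inosine made by ADA, was at 37.0 ± 0.742 and 40.6 ± 1.83 FPKM, with all 3 overexpression values above the control values (limma adjusted p = 0.373). MTAP, which recycles the adenine of polyamine synthesis, was at 78.5 ± 3.58 and 78.7 ± 1.98 FPKM. ADA2, the secreted deaminase, did not exceed 0.03 FPKM in any library. DPP4, the surface protein that anchors ADA, was at 0.387 ± 0.0503 and 0.617 ± 0.182 FPKM, without overlap, and was not tested because it lay below the filter. The adenylate kinases AK3 and AK5 were named after their values were seen. AK3 averaged 58.8 ± 4.51 FPKM in the control libraries and 46.4 ± 2.15 FPKM in overexpression libraries, and AK5 averaged 7.90 ± 1.21 and 5.10 ± 0.573 FPKM. The groups did not overlap for either gene, and neither passed (limma adjusted p = 0.0682 and 0.111).

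Of 12 genes for nucleoside transport and ATP release, 6 were tested and 0 passed (0 higher and 1 lower at an unadjusted p under 0.05, median 0.02). SLC29A2, the second equilibrative carrier ENT2, was at 0.997 ± 0.0757 and 0.783 ± 0.156 FPKM, below the filter and far below SLC29A1. PANX1, a channel that lets ATP out of the cell, was at 11.1 ± 0.286 and 11.8 ± 0.214 FPKM, without overlap (limma adjusted p = 0.672). SLC29A4, a carrier of monoamines that can also move adenosine, was named after its values were seen. It was at 3.28, 3.83 and 3.53 FPKM in the control libraries and 2.17, 1.68 and 2.33 FPKM in the overexpression libraries, without overlap, and did not pass (log2 difference -0.58, limma adjusted p = 0.0937). The list of other purine receptors held 18 genes, not all of them receptors of purines. Of the 18, 17 were in the tables, 3 were tested and 0 passed (0 at an unadjusted p under 0.05). The 3 tested were the nucleotide receptors P2RX4, P2RY1 and P2RY11, at 8.53 ± 0.880, 1.17 ± 0.192 and 13.1 ± 0.597 FPKM in control cells.

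Downstream of the adenosine receptors, 26 of 39 genes of the cyclic AMP relay were tested and 0 passed (1 higher and 3 lower at an unadjusted p under 0.05, median -0.04). GNAS, the G protein subunit through which ADORA2A and ADORA2B stimulate adenylyl cyclase, was at 527 ± 25.7 and 499.5 ± 25.96 FPKM. GNAI2, an inhibitory subunit of the kind that ADORA1 uses, was at 213 ± 8.59 and 189 ± 6.98 FPKM, without overlap (limma adjusted p = 0.172). PRKAR1A, a regulatory subunit of protein kinase A, averaged 141 ± 8.70 and 131 ± 1.33 FPKM, and the catalytic subunit PRKACA 95.3 ± 3.00 and 93.0 ± 1.56 FPKM. Of 16 genes known to respond to cyclic AMP, 13 were tested and 0 passed (0 at an unadjusted p under 0.05, median 0.06). NR4A1, a nuclear receptor gene quickly induced by cyclic AMP, was at 3.61, 4.03 and 3.33 FPKM in the control libraries and 3.81, 3.60 and 3.45 FPKM in the overexpression libraries, with overlap, and CREM, which feeds back on the response, at 24.3 ± 1.77 and 25.1 ± 1.01 FPKM.

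**Figure D3:**
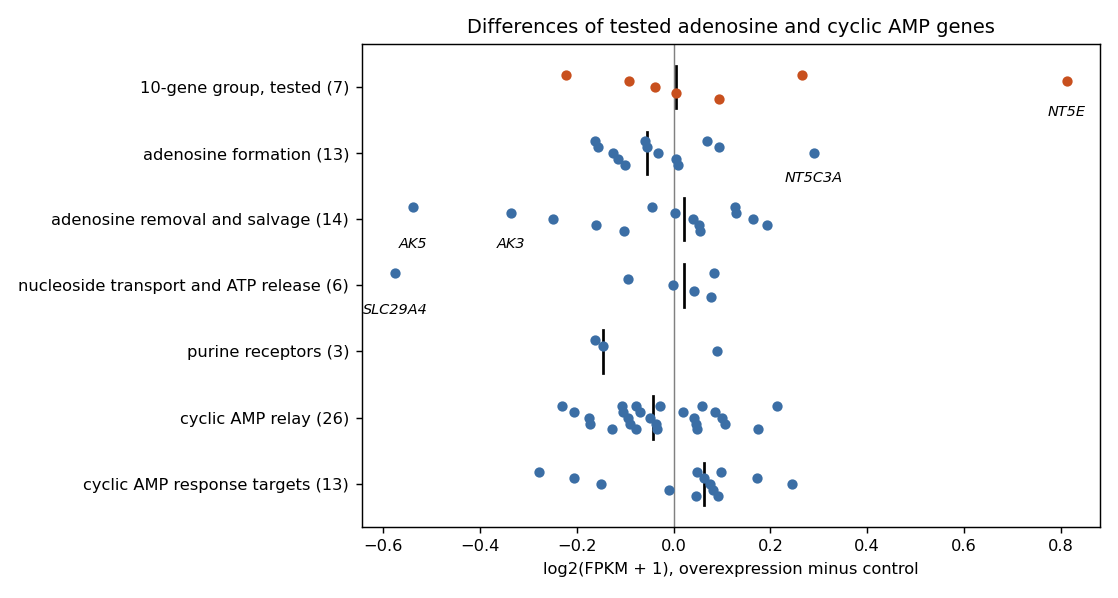
Difference in log2(FPKM + 1), overexpression minus control, for each tested gene (points) of the 10-gene group and of the 6 lists, with the number tested in brackets and a black bar at the median of each list. NT5E, at 0.81, lies to the right of all other points, and AK5 and SLC29A4 lie furthest to the left among genes that did not pass.

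CD73 is also a surface marker of mesenchymal stromal cells, used together with CD90 and CD105. Of 6 other surface proteins of such cells, 5 genes were tested and 0 passed in limma (0 higher and 3 lower at an unadjusted p under 0.05, or 60% of the 5, beside 12.7% of all tested features, median -0.17). THY1 (CD90) was at 134 ± 9.90 and 115 ± 13.6 FPKM (limma adjusted p = 0.344), with overlap. ALCAM, an adhesion molecule, was at 83.8 ± 7.59 and 74.1 ± 3.79 FPKM, without overlap, and MCAM, another adhesion molecule, at 12.45 ± 0.947 and 10.6 ± 1.02 FPKM, with overlap (limma adjusted p = 0.355 and 0.377). CD44 was at 1178 ± 71.9 and 1088 ± 62.9 FPKM, and ENG (CD105) below the filter at 0.96 ± 0.114 and 0.98 ± 0.192 FPKM. Of the panel's negative markers, 6 genes of blood cells summed to between 1.5 and 2.35 FPKM in the control libraries and between 2.11 and 2.86 FPKM in the overexpression libraries, and HLA-DRA was at 0.

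Leukocytes carry CD39 and CD73, so their markers are given beside NT5E. The 5 leukocyte markers used summed to between 1.02 and 1.77 FPKM in the control libraries and between 1.78 and 2.08 FPKM in overexpression libraries. PTPRC (CD45), below the filter, was at 0.13, 0.17 and 0.15 FPKM in the control libraries and 0.65, 0.39 and 0.52 FPKM in the overexpression libraries, without overlap. PTPRC and NT5E were both lowest in control replicate 1, whereas within the overexpression libraries PTPRC was lowest in replicate 2, where NT5E was highest. The part of the PTPRC, GFAP or SOX2 levels in the NT5E result was not tested.

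The genes whose pattern was most like that of NT5E were found by the root mean square difference of log2(FPKM + 1), each gene taken relative to its own control mean, over the 6 libraries. Among 11507 other tested genes with a symbol, whose median difference from NT5E was 0.61, the 5 nearest were DHRS2 (0.17), NPIPB2 (0.17), CXCL8 (0.19), KRT81 (0.21) and TGFBI (0.21). The measure includes the shift of NT5E between the groups. It therefore picks genes with a similar shift, and what they share with NT5E is no separate result. The order of libraries within a group can differ. In the control libraries DHRS2 and CXCL8 were highest in replicate 1, where NT5E was lowest. DHRS2, a short-chain reductase, was at 5.84, 5.44 and 5.58 FPKM in the control libraries and 8.74, 10.93 and 9.44 FPKM in the overexpression libraries, and like NT5E it was highest in overexpression replicate 2. CXCL8, a neutrophil chemokine, was at 10.4, 9.32 and 10.01 FPKM in the control libraries and 14.78, 18.5 and 14.92 FPKM in the overexpression libraries, also with replicate 2 highest. TGFBI, a matrix protein, had nearly equal values in the 3 overexpression libraries, at 54.69, 53.21 and 53.74 FPKM, and so differed from NT5E in the spread within that group. NPIPB2 belongs to a multicopy family and KRT81 has close relatives among the hair keratins, so reads of both may be shared with other genes and their values are uncertain.

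**Figure D4:**
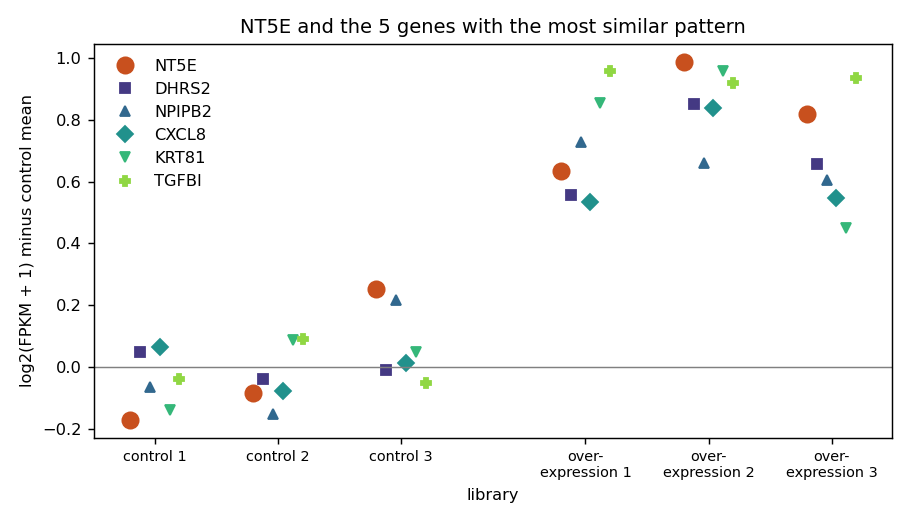
Deviation of log2(FPKM + 1) from the control mean in each library for NT5E (large circles) and the 5 genes with the smallest root mean square difference from it. NT5E is at -0.17, -0.08 and 0.25 in the control libraries and 0.63, 0.99 and 0.82 in the overexpression libraries, and DHRS2 follows at 0.56, 0.85 and 0.66 in the latter.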

How the data were processed

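For every library the authors deposited a table of FPKM values per gene, rounded to 2 decimals. The build hg18 and, with no roles, RSEM 1.3.1, Cufflinks 2.2.1, Bowtie, TopHat and edgeR are listed per the submitters' processing notes, and the sources used here do not say which of them gave the FPKM. RNA was poly(A)-selected and stranded per the labels' protocols, whereas the series' design text describes cytoplasmic RNA without such selection. An incomplete last line in 5 tables was not read. Symbols (19447 of 20330 genes) came from a gene name table, and chromosomes and overlaps from GENCODE 29. That annotation is of another build, so no coordinates are printed. FPKM keeps no depth, and relative depth was estimated from the mode of ratios between genes at low values.

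Groups come from the sample titles. The design text calls the replicates independent, but their source is not given, so p-values measure only the spread between these libraries. The 11731 features listed in all 6 tables and averaging 1 FPKM or more were compared on log2(FPKM + 1) with limma 3.58.1 in R 4.3.3 (trend, two-sided, Benjamini-Hochberg over all tested features, threshold 0.05), tested on simulated data. Summaries used Python 3.11.15. The genes, lists and alternatives were chosen with earlier results of these data known. Named genes are the 10, up to 4 of each list with the highest mean, any past the threshold, a set fixed by role, and the 5 patterns most like NT5E. Outside this rule AK3, AK5, SLC29A4, NT5C3A, MCAM, GFAP, S100B, CD3E, HLA-DRA and the genes overlapping members were named after their values were seen. Alternatives were a pseudocount of 0.1, no filter, TPM, quantile normalization, a replicate block and leaving out each library. One marker of the fixed lists is not reported here.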

Additional observations from a re-analysis of the deposited data

How the results depend on the processing

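The log2 difference of NT5E was 0.81 and lay between 0.73 and 0.94 over its 11 alternatives, with 0.91 at a pseudocount of 0.1, 0.84 after rescaling to TPM and 0.81 under quantile normalization. With replicate numbers fitted as a block, the difference of NT5E stayed at 0.81 and 19 features passed, 15 of them among the 61 of the unblocked fit. The labels do not say that a number marks a shared culture, and same-numbered libraries did not deviate together (correlations of -0.04, -0.06 and 0.04 across features), so the block was not used. Over all features 61 passed, 37 higher and 24 lower with overexpression. The TPM scale again gave 61, but 30 higher and 31 lower, and with no filter on low values it was 22, 3 of them among the 61. Leaving out 1 library gave between 1 and 60. The 0 calls among the wider purine and cyclic AMP genes stood at 0 under all 11 alternatives, with between 8 and 17 genes at an unadjusted p under 0.05. That 0 says little, because some of these fits passed as few as 1 feature in all. Among the other members, ENTPD2 went from -0.04 to -0.22 at a pseudocount of 0.1. That move exceeded the replicate SD of 0.07 on the log2(FPKM + 1) scale, but the spread at a pseudocount of 0.1 was not computed. The small differences of ENTPD1, ENTPD2, ADORA1 and ADORA2B changed sign under 4, 1, 2 and 1 of their alternatives. The block and the filter cannot change a member's difference in this balanced design, only its error. Below about 1 FPKM, as for ADORA1, ENTPD2 and ENTPD3, depth and rounding limit what could be detected.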
